A study of Mus musculus with 12 samples.

Results

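Transcripts of 10 genes that build the meiotic spindle and hold its checkpoint were followed in mouse oocytes without 1 or both mitofusins. The genes were taken by symbol from a list of spindle and checkpoint genes, and all 10 of 10 were present among the 11385 genes of the deposited tables: Bub1, Bub1b, Bub3, Mad2l1, Ttk, Plk1, Aurka, Aurkc, Tpx2 and Incenp. RNA came from germinal-vesicle oocytes, the stage arrested in meiotic prophase, of unprimed C57BL/6J mice of 21 to 23 days whose cumulus cells had been stripped off. There were 4 groups with 3 libraries each: Mfn1-/- oocytes lacking mitofusin 1, Mfn2-/- oocytes lacking mitofusin 2, Mfn1&2-/- oocytes lacking both, and WT oocytes. Each library was a pool of 50 oocytes. The labels do not say by which promoter or in which cells the genes were deleted, nor if different animals supplied the 3 pools of each group, so p-values measure the spread between pools, which may be technical.

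Mitofusins are outer-membrane GTPases that join mitochondria. The spindle assembly checkpoint delays anaphase until every kinetochore is held by microtubules: Ttk (Mps1 kinase) starts the signal, Bub1 and Bub3 dock on the kinetochore, and Bub1b (BubR1) and Mad2l1 (Mad2) bind and block Cdc20, the activator of the anaphase-promoting complex. Plk1 and Aurka are mitotic kinases that mature spindle poles, and Tpx2 activates Aurka on microtubules. Aurkc is the germ-cell Aurora kinase that joins Incenp, the scaffold of the chromosomal passenger complex, which corrects wrong attachments. A germinal-vesicle oocyte stores such transcripts for the meiotic divisions that follow its release from arrest.

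Promoters of 4 genes are shown, since their levels differed between groups in the tests below. They are RefSeq sequences of GRCm38.p6, running from 250 bases before the transcript start to 50 bases from it on. Of the 10 genes, 8 had a listed promoter and Tpx2 and Incenp did not. Aurkc was taken from chr7:6995135-6995434, Bub1b from chr2:118597961-118598260, Bub3 from chr7:131560120-131560419 (the first of 2 listed starts) and Mad2l1 from chr6:66534971-66535270, each on the plus strand. Capitals mark TTTGAA, the core of the cell-cycle homology region, and CCAAT, each on either strand.
Aurkc: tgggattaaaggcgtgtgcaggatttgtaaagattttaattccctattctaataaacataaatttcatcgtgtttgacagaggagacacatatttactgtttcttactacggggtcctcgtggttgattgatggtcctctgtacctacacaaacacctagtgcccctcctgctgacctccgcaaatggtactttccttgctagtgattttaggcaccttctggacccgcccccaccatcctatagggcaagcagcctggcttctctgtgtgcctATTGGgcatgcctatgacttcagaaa
Bub1b: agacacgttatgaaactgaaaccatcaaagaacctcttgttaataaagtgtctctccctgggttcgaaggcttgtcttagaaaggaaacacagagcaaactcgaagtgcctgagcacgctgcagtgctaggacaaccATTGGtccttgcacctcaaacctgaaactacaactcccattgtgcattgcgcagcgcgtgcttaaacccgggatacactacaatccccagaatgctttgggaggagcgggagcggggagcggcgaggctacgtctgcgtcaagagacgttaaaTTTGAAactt
Bub3: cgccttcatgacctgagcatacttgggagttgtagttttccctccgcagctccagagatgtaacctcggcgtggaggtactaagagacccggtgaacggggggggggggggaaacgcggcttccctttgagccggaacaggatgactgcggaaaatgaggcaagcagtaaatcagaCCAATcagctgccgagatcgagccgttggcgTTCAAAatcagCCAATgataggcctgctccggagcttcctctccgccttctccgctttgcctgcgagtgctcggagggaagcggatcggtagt
Mad2l1: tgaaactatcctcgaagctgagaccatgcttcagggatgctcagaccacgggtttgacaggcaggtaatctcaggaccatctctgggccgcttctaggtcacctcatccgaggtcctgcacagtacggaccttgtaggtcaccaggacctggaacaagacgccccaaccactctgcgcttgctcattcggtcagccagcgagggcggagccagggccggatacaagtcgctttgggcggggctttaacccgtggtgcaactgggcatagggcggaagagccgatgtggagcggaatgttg
TTTGAA was found in 5 of the 8 promoters, against 17.9% of 32851 mouse promoters of the same length, and CCAAT in 7 of 8, against 37.4%. The Aurkc window held 1 CCAAT and no TTTGAA, and the Mad2l1 window held neither. No match of one motif overlapped a match of the other. A match describes letters in the window and not a used site.

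Libraries held 11575357 to 16024893 counts, and 3 counts, taken as the floor, were worth 0.188 to 0.253 CPM, far below each of the 10 genes. Levels are library-scaled counts (CPM) that use edgeR's TMM factors. Mfn1 stood at 17.8, 18.9 and 17.7 CPM in Mfn1-/- oocytes and 26.4, 19.1 and 14.8 in Mfn1&2-/-, against 264, 278 and 297 CPM in WT. Mfn2 stood at 9.19, 10.8 and 13.5 CPM in Mfn2-/- and 12.3, 10.1 and 9.99 in Mfn1&2-/-, against 87.2, 73.4 and 68.4 CPM in WT, so both targeted genes followed the labels. Of 15 oocyte markers 14 were measured, and their summed level was 14937 to 21928 CPM over the 12 libraries. The sum was 19032 to 21928 CPM in Mfn2-/-, above every pool of the other groups. It was 16000 to 18712 CPM in Mfn1-/-, 15793 to 18638 in Mfn1&2-/- and 14937 to 18082 in WT. Of 13 granulosa markers 10 were measured, and their sum was 523 CPM in WT replicate 3 and 148 to 219 CPM in the other 11 libraries. Of 11 markers of theca, endothelium and blood 3 were measured, with sums of 98.8 to 151.7 CPM. Those 3 were the endothelial genes Pecam1, Kdr and Tie1, so theca and blood content was not assessed. Their sum was 130 to 151.7 CPM in Mfn1&2-/- and 98.8 to 125.5 CPM in the other groups. The part of such group differences in the results below was not tested.

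Per kilobase of annotated exon (GENCODE vM21), Bub1b was the most abundant of the 10 transcripts in each group, and Bub3 and Mad2l1 were the least abundant. In Mfn1-/- oocytes Bub1b stood at 385 ± 44.8 CPM per kb, in Mfn2-/- at 332 ± 36.5, in Mfn1&2-/- at 487 ± 19.5 and in WT at 425 ± 16.8 CPM per kb (SD, n = 3 each). In WT the order below it was Plk1 (135 ± 10.4), Tpx2 (82.4 ± 13.9), Aurka (77.1 ± 5.36), Ttk (72.7 ± 6.34), Incenp (48.2 ± 4.17), Aurkc (39.7 ± 6.84), Bub1 (30.2 ± 0.750), Bub3 (9.11 ± 0.693) and Mad2l1 (7.94 ± 0.493 CPM per kb). In WT the SDs overlapped between Tpx2, Aurka and Ttk, between Incenp and Aurkc, and, at their edge, between Bub3 and Mad2l1, so these neighbours could not be ordered on this scale. With the longest annotated transcript as length in place of all exons, Ttk stood at 125 ± 10.9 CPM per kb in WT, above Aurka (102 ± 7.12) and Tpx2 (88.3 ± 14.9). On that scale Bub3 stood at 15.9 ± 1.21 CPM per kb, above Mad2l1 (8.81 ± 0.548), so the order depends on the length used. Without division by length, Aurkc had the lowest WT mean (60.5 ± 10.4 CPM), with SDs that overlapped those of Bub3 (63.9 ± 4.86) and Mad2l1 (66.6 ± 4.14). Bub3 and Mad2l1 still lay below Bub1 (132 ± 3.27 CPM) on that scale. Their place below Aurkc thus rests on the annotated lengths, but their place below the other genes does not.

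**Figure D1:**
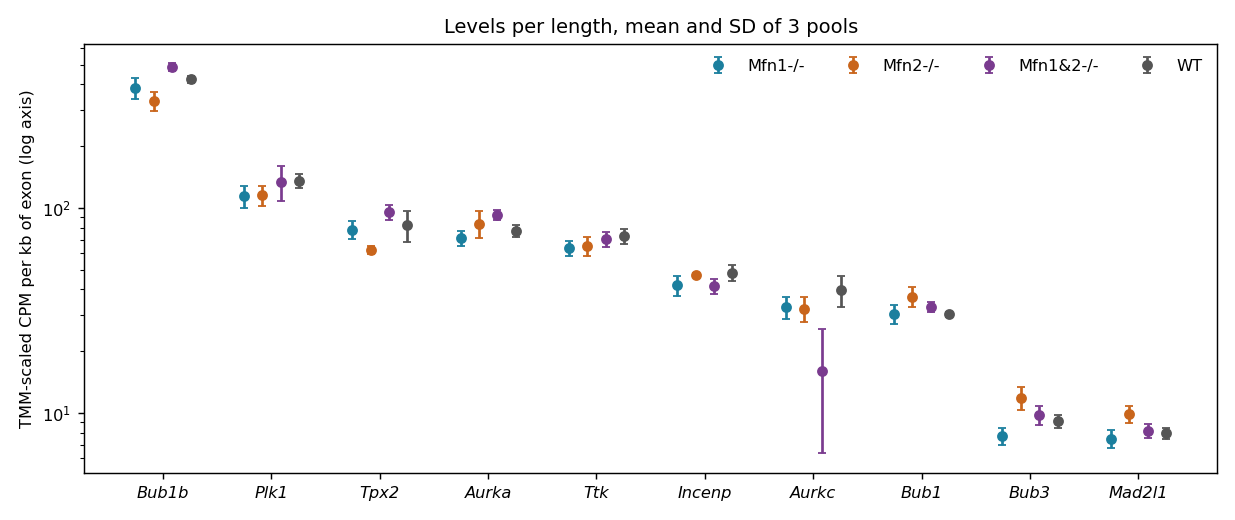
Level per kilobase of exon on a log axis for the 10 transcripts, as mean and SD of 3 pools, with Mfn1-/-, Mfn2-/-, Mfn1&2-/- and WT from left to right within each gene. Bub1b stands highest in every group, and the mean of Aurkc lies lowest in Mfn1&2-/- oocytes.

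Bub1b (chromosome 2, 118598211 to 118641591), the checkpoint pseudokinase BubR1, had its lowest mean in Mfn2-/- oocytes and its highest in Mfn1&2-/- oocytes. It stood at 1471, 1850.2 and 1618 CPM in Mfn1-/- oocytes, 1546, 1244 and 1464 in Mfn2-/-, 2126, 2131 and 1984 in Mfn1&2-/- and 1889, 1809.9 and 1746 CPM in WT oocytes. All Mfn2-/- pools lay below all WT pools, all Mfn1&2-/- pools lay above every other pool, and the Mfn1-/- pools overlapped with both WT and Mfn2-/-. Bub1b fell in Mfn2-/- against WT (log2 fold change -0.36 ± 0.097, ± SE with 3 pools a group here and below; edgeR adjusted p = 0.0276). Neither Mfn1-/- (-0.14 ± 0.097; edgeR adjusted p = 0.582) nor Mfn1&2-/- (0.20 ± 0.097; edgeR adjusted p = 0.294) passed the threshold of 0.05 against WT. In pooled RNA, fewer cells holding a transcript and less of it per cell cannot be told apart.

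Between the knockouts Bub1b was higher in Mfn1&2-/- than in Mfn2-/- oocytes (0.55 ± 0.097; edgeR adjusted p = 0.00278), and this call stayed without each of the 12 libraries. The fall against WT was lost without WT replicate 1, 2 or 3 and without Mfn2-/- replicate 2 or 3 (edgeR adjusted p = 0.0510 to 0.123). Without WT replicate 3, where granulosa transcripts were high, it was -0.38, and the part of granulosa transcripts in this was not tested.

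Bub3 (chromosome 7, 131560222 to 131571895), which carries Bub1 and Bub1b to the kinetochore, and Mad2l1 (chromosome 6, 66535390 to 66547220), whose product is the diffusible part of the checkpoint signal, separated the 2 single knockouts. Bub3 stood at 55.6, 48.5 and 58.5 CPM in Mfn1-/- oocytes, 91.6, 71.4 and 85.5 in Mfn2-/-, 66.9, 76.2 and 62.1 in Mfn1&2-/- and 67.6, 65.5 and 58.4 CPM in WT oocytes. Every Mfn2-/- pool was above every Mfn1-/- and every WT pool, while the Mfn1-/- and WT pools overlapped at their edge. Mad2l1 stood at 69.9, 60.4 and 57.8 CPM in Mfn1-/- oocytes, 89.4, 73.9 and 84.1 in Mfn2-/-, 67.9, 74.2 and 64.0 in Mfn1&2-/- and 69.2, 61.8 and 68.8 CPM in WT oocytes. Again the 3 Mfn2-/- pools were above all Mfn1-/- and all WT pools, and Mfn1-/-, Mfn1&2-/- and WT overlapped.

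Bub3 was lower in Mfn1-/- than in Mfn2-/- oocytes (-0.61 ± 0.13; edgeR adjusted p = 0.00655), and the call stayed without each library. Mad2l1 was likewise lower in Mfn1-/- than in Mfn2-/- (-0.40 ± 0.12; edgeR adjusted p = 0.0412). That call was lost without Mfn1-/- replicate 2 or 3 and Mfn2-/- replicate 1 or 3 (edgeR adjusted p = 0.125 to 0.148), with only the compared groups (edgeR adjusted p = 0.0627) and with library size as the only scaling (edgeR adjusted p = 0.0503). Against WT, Bub3 was at -0.24 ± 0.13 in Mfn1-/-, 0.38 ± 0.13 in Mfn2-/- and 0.10 ± 0.13 in Mfn1&2-/-, and Mad2l1 at -0.088 ± 0.12, 0.31 ± 0.12 and 0.045 ± 0.12 in the same order. None of these 6 passed 0.05 (edgeR adjusted p = 0.0775 to 0.893), though with library size as the only scaling Bub3 passed in Mfn2-/- (0.42; edgeR adjusted p = 0.0496). Bub3 lies within the span of Fgfr2 on the opposite strand, sharing 0 exonic bases with it. The sources used here do not say if reads were counted by strand. Unspliced Fgfr2 reads over Bub3 exons, if any, therefore cannot be told apart from Bub3 reads.

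Bub1 and Ttk, the kinases at the top of the checkpoint, passed no test in the 7 comparisons. Bub1 (chromosome 2, 127801122 to 127831865) stood at 117, 134 and 146 CPM in Mfn1-/- oocytes, 178, 161 and 142 in Mfn2-/-, 149, 134 and 147 in Mfn1&2-/- and 132, 135 and 128 CPM in WT oocytes. The Mfn2-/- pools were above the WT pools, and the other 2 knockouts overlapped with WT. Against WT, Bub1 was at 0.0081 ± 0.11 in Mfn1-/- (edgeR adjusted p = 0.984), 0.28 ± 0.11 in Mfn2-/- (edgeR adjusted p = 0.0976) and 0.12 ± 0.11 in Mfn1&2-/- (edgeR adjusted p = 0.611). With library size as the only scaling Bub1 passed in Mfn2-/- (0.33; edgeR adjusted p = 0.0416).

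Ttk (chromosome 9, 83834689 to 83872389) stood at 285, 338 and 318 CPM in Mfn1-/- oocytes, 361, 294 and 307 in Mfn2-/-, 374, 344 and 316 in Mfn1&2-/- and 351, 330.5 and 392 CPM in WT oocytes. All 4 groups overlapped. Its log2 fold changes against WT were -0.19 ± 0.10 in Mfn1-/- (edgeR adjusted p = 0.469), -0.16 ± 0.10 in Mfn2-/- (edgeR adjusted p = 0.371) and -0.053 ± 0.10 in Mfn1&2-/- (edgeR adjusted p = 0.848).

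**Figure D2:**
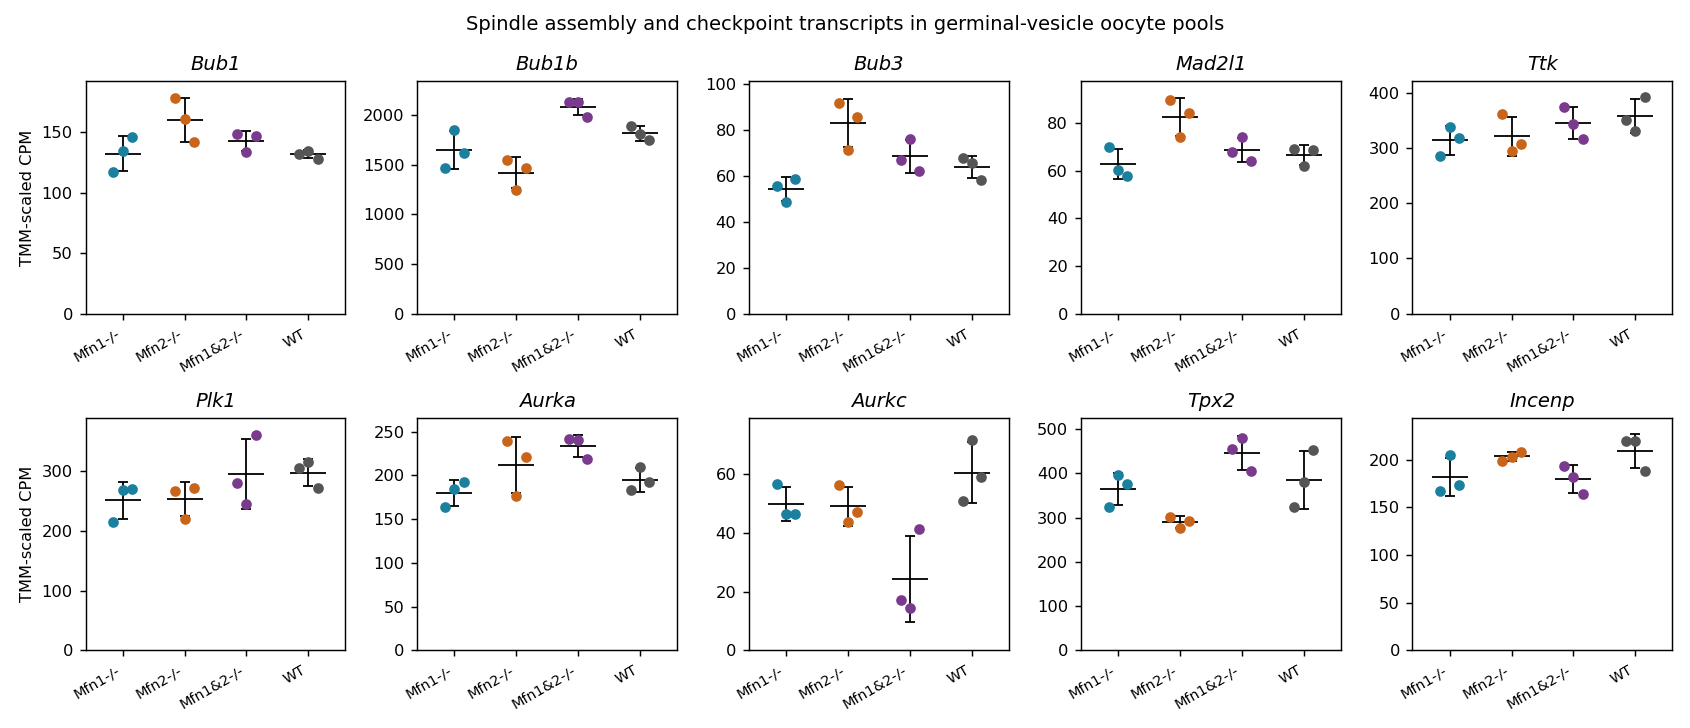
TMM-scaled CPM of the 10 transcripts in each pool (points), with mean and SD (bars), for Mfn1-/-, Mfn2-/-, Mfn1&2-/- and WT oocytes, n = 3 pools each, on axes that start at 0. The means of Bub1b and Tpx2 are lowest in Mfn2-/- and highest in Mfn1&2-/-, and 2 of the 3 Mfn1&2-/- pools of Aurkc lie far below all others.

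Aurkc (chromosome 7, 6995300 to 7003091) was the gene of the 10 with the largest fold change, and it was lower in oocytes without both mitofusins. It stood at 56.7, 46.3 and 46.6 CPM in Mfn1-/- oocytes, 56.5, 43.6 and 47.1 in Mfn2-/-, 17.3, 14.5 and 41.2 in Mfn1&2-/- and 51.0, 71.6 and 58.9 CPM in WT oocytes. All 3 Mfn1&2-/- pools lay below every other pool, but replicate 3 lay just under the lowest Mfn2-/- pool, well above the other 2. The group mean was 40.2% of WT in Mfn1&2-/-, 82.4% in Mfn1-/- and 81.1% in Mfn2-/-.

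Aurkc fell in Mfn1&2-/- against WT (-1.31 ± 0.29; edgeR adjusted p = 0.0160), and was lower there than in Mfn1-/- (-1.04 ± 0.29; edgeR adjusted p = 0.0467) and in Mfn2-/- (-1.01 ± 0.29; edgeR adjusted p = 0.0354). Those 3 comparisons share the Mfn1&2-/- pools. The single knockouts did not pass against WT, with -0.28 ± 0.28 in Mfn1-/- (edgeR adjusted p = 0.717) and -0.30 ± 0.28 in Mfn2-/- (edgeR adjusted p = 0.545). The difference between the effect of both losses and the sum of the single ones was -0.73 ± 0.40 and did not pass either (edgeR adjusted p = 0.310).

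Individual pools moved the Aurkc values. Without Mfn1&2-/- replicate 3 the log2 fold changes were -1.93 against WT, -1.65 against Mfn1-/- and -1.63 against Mfn2-/-, and the difference from the sum of the single losses was -1.35 and passed (edgeR adjusted p = 0.0153). The call against WT was lost without WT replicate 2 (-1.18; edgeR adjusted p = 0.0655) and without Mfn1&2-/- replicate 2 (-1.05; edgeR adjusted p = 0.0634), the call against Mfn2-/- without any 1 Mfn2-/- pool and without Mfn1&2-/- replicate 1 or 2, and the call against Mfn1-/- without any library except Mfn2-/- replicate 1 and Mfn1&2-/- replicate 3. With only the compared groups in the fit all 3 calls were lost (edgeR adjusted p = 0.0635 against WT, 0.0934 against Mfn1-/- and 0.0764 against Mfn2-/-), while DESeq2 made all 3 (adjusted p = 0.000121 against WT, 0.00419 against Mfn1-/- and 0.00383 against Mfn2-/-). Aurkb, the somatic Aurora kinase of the same complex, was looked up after the Aurkc values had been seen. It stood at 19.6, 17.5 and 14.9 CPM in Mfn1-/- oocytes, 18.0, 15.9 and 16.7 in Mfn2-/-, 17.2, 18.2 and 23.0 in Mfn1&2-/- and 13.8, 16.5 and 17.5 CPM in WT oocytes, with overlap between all groups, and passed none of the 7 tests.

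Aurka (chromosome 2, 172356190 to 172370535), the spindle-pole Aurora kinase, stood at 164, 184 and 193 CPM in Mfn1-/- oocytes, 239, 177 and 221 in Mfn2-/-, 242, 241 and 219 in Mfn1&2-/- and 183, 209.9 and 192 CPM in WT oocytes. The Mfn1&2-/- pools were above all WT and Mfn1-/- pools and overlapped with Mfn2-/-. Against WT it was at -0.11 ± 0.11 in Mfn1-/- (edgeR adjusted p = 0.706), 0.12 ± 0.11 in Mfn2-/- (edgeR adjusted p = 0.538) and 0.26 ± 0.11 in Mfn1&2-/- (edgeR adjusted p = 0.213). Against Mfn1-/-, Aurka in Mfn1&2-/- was just outside the threshold (0.37 ± 0.11; edgeR adjusted p = 0.0590), and DESeq2 called it (adjusted p = 0.0339), as did edgeR without Mfn2-/- replicate 1 (adjusted p = 0.0496) or Mfn2-/- replicate 2 (adjusted p = 0.0329). Without Mfn2-/- replicate 2 Aurka was also lower in Mfn1-/- than in Mfn2-/- (-0.35; edgeR adjusted p = 0.0485).

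Plk1 (chromosome 7, 122159439 to 122169873), the Polo kinase of centrosomes and kinetochores, stood at 215, 268 and 269 CPM in Mfn1-/- oocytes, 266, 221 and 272 in Mfn2-/-, 280.5, 245 and 359.8 in Mfn1&2-/- and 306, 315 and 271 CPM in WT oocytes. Every Mfn1-/- pool was below every WT pool, if narrowly, and the Mfn1&2-/- pools were the most spread. Against WT it was at -0.24 ± 0.13 in Mfn1-/- (edgeR adjusted p = 0.469), -0.23 ± 0.13 in Mfn2-/- (edgeR adjusted p = 0.297) and -0.010 ± 0.13 in Mfn1&2-/- (edgeR adjusted p = 0.980). Of its exon bases 156 lie opposite Gm44985, a locus on the other strand.

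Tpx2 (chromosome 2, 152847964 to 152895321), the microtubule nucleator that activates Aurora A, varied in the same order over the groups as Bub1b. It stood at 325, 395 and 376 CPM in Mfn1-/- oocytes, 302, 276 and 293 in Mfn2-/-, 455, 481 and 405 in Mfn1&2-/- and 323, 380.0 and 453 CPM in WT oocytes. The 3 Mfn2-/- pools were below all other pools, and the Mfn1&2-/- pools were above the Mfn1-/- pools but overlapped with WT, which was widely spread. Tpx2 fell in Mfn2-/- against WT (-0.41 ± 0.12; edgeR adjusted p = 0.0337). In Mfn1-/- it was at -0.078 ± 0.12 (edgeR adjusted p = 0.822) and in Mfn1&2-/- at 0.21 ± 0.12 (edgeR adjusted p = 0.349).

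Tpx2 was also higher in Mfn1&2-/- than in Mfn2-/- oocytes (0.62 ± 0.12; edgeR adjusted p = 0.00390), and this call stayed without each library. The call against WT was lost without WT replicate 2 or 3 and without each Mfn2-/- pool (edgeR adjusted p = 0.0637 to 0.164). WT replicate 3, with the high granulosa sum of 523 CPM, also held the highest WT level of Tpx2, and without it the fold change against WT was -0.28 (edgeR adjusted p = 0.164). The part of granulosa transcripts in this was not tested.

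Incenp (chromosome 19, 9872296 to 9899551), the passenger-complex scaffold, stood at 167, 205 and 173 CPM in Mfn1-/- oocytes, 199, 203 and 208 in Mfn2-/-, 193, 182 and 164 in Mfn1&2-/- and 219, 219 and 188 CPM in WT oocytes. The Mfn1&2-/- pools lay below the Mfn2-/- pools, and each knockout overlapped with WT. Against WT it was at -0.20 ± 0.10 in Mfn1-/- (edgeR adjusted p = 0.430), -0.038 ± 0.10 in Mfn2-/- (edgeR adjusted p = 0.862) and -0.22 ± 0.10 in Mfn1&2-/- (edgeR adjusted p = 0.267). No comparison called it.

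**Figure D3:**
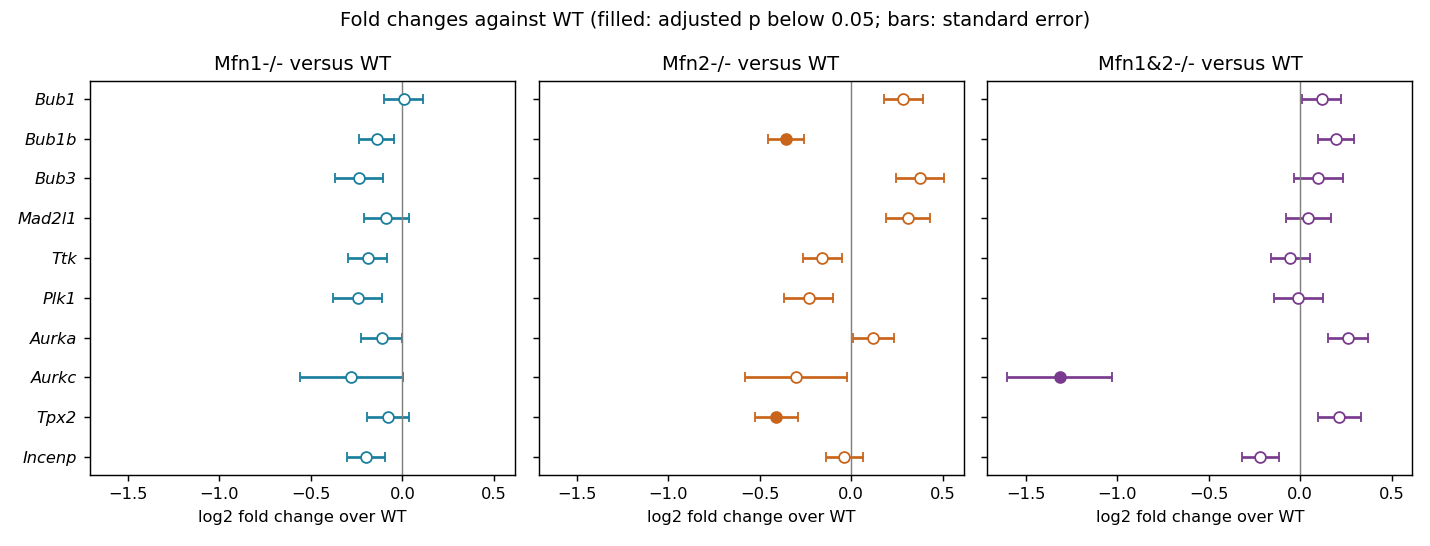
Log2 fold change over WT with its standard error for the 10 transcripts in Mfn1-/-, Mfn2-/- and Mfn1&2-/- oocytes, filled where the edgeR adjusted p was below 0.05. The filled points are Bub1b and Tpx2 in Mfn2-/- and Aurkc in Mfn1&2-/-, all 3 lower than in WT.

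Loss of mitofusin 1 alone left the 10 transcripts without a call. Of the 10, 9 had a lower fitted level than in WT, as did 5842 of all 11385 genes. These fold changes share the same WT pools. By edgeR, 0 of the 10 genes were called (0 with an unadjusted p below 0.05 and 0 with DESeq2), against 0.228% of the 11385 genes tested (0.0703% higher, 0.158% lower). The median log2 fold change of the 10 was -0.17, against a median of -0.0095 over all genes. Beside these, 89 further genes of 3 pathway lists were measured: 28 of 28 checkpoint and kinetochore genes, 23 of 24 Aurora and Polo partners and 38 of 38 spindle microtubule genes. Of the 89, edgeR called 0 in Mfn1-/- (13 at unadjusted p below 0.05, and DESeq2 called 4, all lower). Over all 11385 genes 1456 had an unadjusted p below 0.05 in this comparison. DESeq2 called 224 of the 11385, of which 93 were higher. Of 14 oocyte, 10 granulosa and 3 endothelial markers edgeR called 0. All 10 granulosa markers were lower than in WT (median log2 fold change -1.36, 5 with an unadjusted p below 0.05 by edgeR). The part of these markers in these results was not tested.

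In Mfn2-/- against WT, Bub1b and Tpx2 fell and 0 of the 10 rose. These 2 of 10 stood against 11.4% of all genes called (4.52% higher, 6.87% lower). With library size as the only scaling 49.8% of all calls were higher in place of 39.7%, and 4 of the 10 genes were called, with Bub1 and Bub3 higher. The median of the 10 was -0.098, against 0.013 over all genes.

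Of the 38 spindle microtubule genes, the longest of the 3 lists, 3 rose and 4 fell in Mfn2-/- (18.4%, against 11.4% of all genes), and the lists were not tested against each other. Tubg1, the gamma-tubulin that seeds microtubules, stood at 37.6, 41.1 and 38.6 CPM in Mfn2-/- against 67.3, 77.5 and 71.5 CPM in WT. No pools overlapped, and the fall (-0.88 ± 0.11; edgeR adjusted p = 0.000179) stayed without each library. Nusap1, a microtubule bundler, also fell (-0.48 ± 0.14), as did Cdk5rap2 (-0.42 ± 0.12), which anchors gamma-tubulin at centrosomes. Kif18a, a motor that aligns chromosomes, stood at 126, 109 and 122 CPM in Mfn2-/- against 77.1, 70.3 and 85.8 CPM in WT and rose (0.62 ± 0.13; edgeR adjusted p = 0.00584). The minus-end motor Kifc1 rose (0.63 ± 0.18), and so did Kpna2 (0.39 ± 0.083), an importin alpha that holds spindle factors such as Tpx2 inactive. Calls of Kif18a, Kpna2 and Tubg1 stayed without each library.

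Of 28 checkpoint and kinetochore genes 1 rose and 2 fell in Mfn2-/-. Casc5 (Knl1), the kinetochore scaffold for Bub1 and Bub3, rose (0.38 ± 0.11). Mad1l1, which recruits Mad2 to kinetochores, fell (-0.50 ± 0.15), as did the dynein adaptor Spdl1 (-0.39 ± 0.10). Of 23 Aurora and Polo partners 0 rose and 1 fell, the passenger-complex subunit Cdca8 (borealin; -0.49 ± 0.14). In all 11 of 89 were called (12.4%), close to the 11.4% of all genes. The 11 calls became 7 without WT replicate 2 or Mfn1-/- replicate 3, 5 without Mfn2-/- replicate 1 and 4 without WT replicate 3, Mfn2-/- replicate 2 or Mfn2-/- replicate 3. Among the marker lists, 4 of 10 granulosa genes were lower and 4 of 14 oocyte genes higher in Mfn2-/- than in WT. Of the 3 endothelial markers 1 was lower. The part of these markers in these results was not tested.

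In Mfn1&2-/- against WT, Aurkc fell and the other 9 of the 10 genes did not pass. This 1 of 10 stood against 4.21% of all genes called (2.1% higher, 2.11% lower). The median of the 10 was 0.072, against 0.0028 over all genes. Of the 89 pathway genes 2 rose and 2 fell (4.49%), and DESeq2 called 7, against 834 of all 11385 genes. Of 10 granulosa markers 2 were lower in Mfn1&2-/- than in WT. Of the 3 endothelial markers 1 was higher and 1 lower. The part of these markers in these results was not tested. Without WT replicate 3, which held the high granulosa sum, Aurkc was at -1.33 (edgeR adjusted p = 0.0389) and 3 pathway genes were called. Kntc1, part of the complex that brings dynein and Mad1 to kinetochores, stood at 111, 123 and 118 CPM in Mfn1&2-/- against 163, 162 and 164 CPM in WT and fell (-0.47 ± 0.092; edgeR adjusted p = 0.00827). Cep192, the scaffold that docks Aurora A and Plk1 at spindle poles, also fell (-0.40 ± 0.10), though not without each library.

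Aurkaip1, named for binding Aurora A and also a protein of the mitochondrial ribosome, stood at 78.5, 62.3 and 62.6 CPM in Mfn1&2-/- against 17.9, 40.1 and 20.9 CPM in WT and rose (1.37 ± 0.25; edgeR adjusted p = 0.00582). Kpna2 stood at 520.2, 483 and 484 CPM against 363, 342 and 338 CPM in WT and rose (0.51 ± 0.083; edgeR adjusted p = 0.00220). Neither overlapped with WT, and both calls, like that of Kntc1, stayed without each library.

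**Figure D4:**
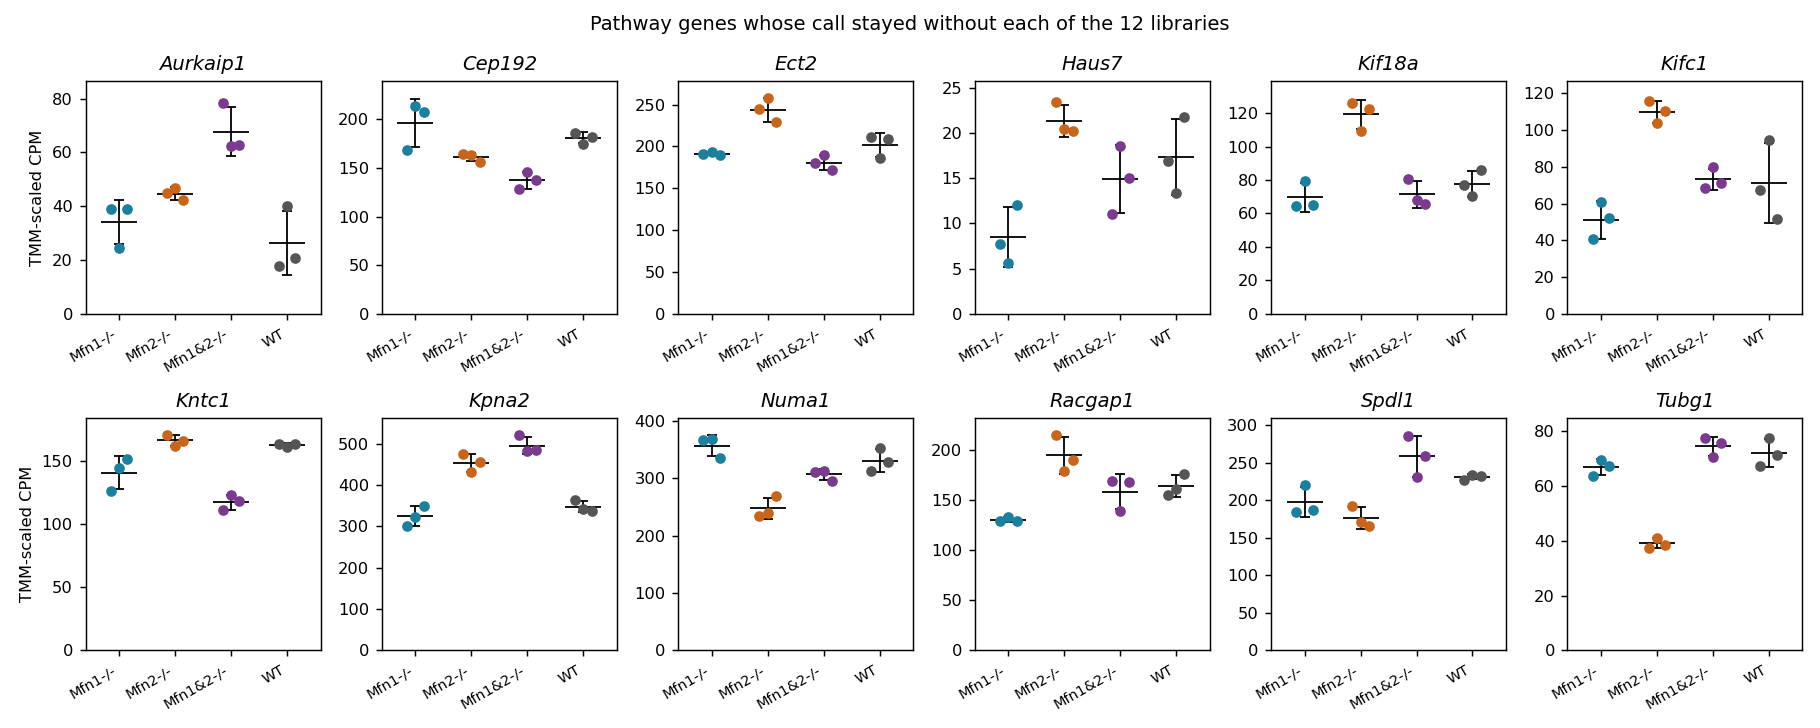
TMM-scaled CPM in each pool (points), with mean and SD (bars), of the 12 pathway genes that had at least 1 named call kept without each library, for Mfn1-/-, Mfn2-/-, Mfn1&2-/- and WT oocytes, n = 3 pools each. Tubg1 and Numa1 are lowest in Mfn2-/-, where Kif18a, Kifc1, Ect2 and Racgap1 are highest, and Aurkaip1 is highest in Mfn1&2-/-.

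Against Mfn1-/- oocytes, which share the loss of mitofusin 1, Mfn1&2-/- oocytes had lower Aurkc as the 1 call among the 10 genes, against 5.36% of all genes called (2.76% higher, 2.6% lower). The log2 fold changes of the other 9 ran from -0.017 for Incenp to 0.37 for Aurka, and Bub1b stood just outside the threshold (0.34 ± 0.097; edgeR adjusted p = 0.0539). Bub1b passed with DESeq2 (adjusted p = 0.0231) and with edgeR without Mfn1-/- replicate 2, Mfn2-/- replicate 1 or Mfn2-/- replicate 2 (edgeR adjusted p = 0.0347 to 0.0499). The median of the 10 was 0.19, against 0.013 over all genes. With library size as the only scaling 38.5% of all calls were higher in place of 51.5%. Of the 89 pathway genes 4 rose and 1 fell (5.62%). Kpna2 (0.61 ± 0.083), Aurkaip1 (0.99 ± 0.25) and Spdl1 (0.39 ± 0.10) were higher, and Cep192 was lower (-0.52 ± 0.10), with Kpna2 and Cep192 kept without each library. The 5 calls became 2 without Mfn1-/- replicate 1 or Mfn1&2-/- replicate 3, 3 without Mfn2-/- replicate 3 or Mfn1&2-/- replicate 2 or with only the compared groups, and 8 with DESeq2. DESeq2 called 1044 of all 11385 genes here. Of 14 oocyte markers 1 was lower and of 10 granulosa markers 1 was lower in Mfn1&2-/- than in Mfn1-/-. Of the 3 endothelial markers 1 was higher and 1 lower. The part of these markers in these results was not tested.

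Against Mfn2-/- oocytes, Mfn1&2-/- oocytes had higher Bub1b and Tpx2 and lower Aurkc. These 3 of 10 stood against 10.2% of all genes called (6.14% higher, 4.08% lower), or 48.2% of all calls higher in place of 60.1% with library size as the only scaling. The other 7 genes ran from -0.28 for Bub3 to 0.22 for Plk1. The median of the 10 was -0.031, against -0.010 over all genes.

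Of the 89 pathway genes 8 were higher and 6 lower in Mfn1&2-/- than in Mfn2-/- (15.7%). Tubg1 stood at 77.4, 70.5 and 75.6 CPM in Mfn1&2-/- against 37.6, 41.1 and 38.6 CPM in Mfn2-/- (0.93 ± 0.11; edgeR adjusted p = 0.000175). Spdl1 stood at 286, 231 and 259 CPM in Mfn1&2-/- against 192, 171 and 166 CPM in Mfn2-/- (0.55 ± 0.10; edgeR adjusted p = 0.00364). In both genes all Mfn1&2-/- pools were above all Mfn2-/- pools.

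Nuf2 of the NDC80 microtubule-binding complex (0.67 ± 0.17), Cdca8 (0.49 ± 0.14), Nusap1 (0.61 ± 0.14), the spindle-pole protein Numa1 (0.31 ± 0.085) and Kif23 of the central spindle (0.40 ± 0.11) were also higher in Mfn1&2-/-. Lower were Kif18a (-0.74 ± 0.13), Kntc1 (-0.50 ± 0.092), the cytokinesis factor Ect2 (-0.43 ± 0.086), the centromere protein Cenpc1 (-0.51 ± 0.15), the augmin subunit Haus6 (-0.47 ± 0.12) and the kinetochore protein Dsn1 (-0.29 ± 0.089). Of all these, Tubg1, Spdl1, Kif18a, Kntc1 and Ect2 kept their calls without each library. The 14 calls became 5 when Mfn2-/- replicate 2 was left out, 7 when replicate 1 of that group was, and 8 without its replicate 3 or without Mfn1&2-/- replicate 2 or 3. Of 14 oocyte markers 3 were lower and of 10 granulosa markers 1 was lower in Mfn1&2-/- than in Mfn2-/-. Of the 3 endothelial markers 1 was higher, and the part of these markers in these results was not tested. The comparisons of Mfn1&2-/- with Mfn2-/- and of Mfn2-/- with WT share the Mfn2-/- pools.

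Mfn1-/- oocytes had lower Bub3 and Mad2l1 than Mfn2-/- oocytes. These 2 of 10 stood against 13.3% of all genes called (6.84% higher, 6.46% lower). The other 8 genes ran from -0.28 for Bub1 to 0.33 for Tpx2. Tpx2 passed with DESeq2 (adjusted p = 0.0393) and, by edgeR, with library size as the only scaling (adjusted p = 0.0377), with only the compared groups (adjusted p = 0.0370) and without WT replicate 1, WT replicate 3 or Mfn1-/- replicate 1 (adjusted p = 0.0388 to 0.0471). The median of the 10 was -0.097, against -0.0042 over all genes.

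Of the 89 pathway genes 2 were higher and 11 lower in Mfn1-/- than in Mfn2-/- (14.6%). Kif18a stood at 64.4, 79.3 and 64.9 CPM in Mfn1-/- against 126, 109 and 122 CPM in Mfn2-/- (-0.78 ± 0.13; edgeR adjusted p = 0.00112). Kifc1 stood at 40.5, 61.0 and 51.9 CPM in Mfn1-/- against 116, 104 and 110.2 CPM in Mfn2-/- (-1.10 ± 0.19; edgeR adjusted p = 0.00138). For both motors every Mfn1-/- pool was below every Mfn2-/- pool.

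Racgap1, the centralspindlin partner of Kif23 (-0.58 ± 0.10), Ect2 (-0.35 ± 0.086), the augmin subunit Haus7 (-1.34 ± 0.28), the Polo-like kinase Plk2 (-1.64 ± 0.49) and the checkpoint target Cdc20 (-0.39 ± 0.11) were also lower in Mfn1-/-, while Tubg1 (0.78 ± 0.11) and Numa1 (0.53 ± 0.086) were higher. Kif18a, Kifc1, Racgap1, Haus7, Tubg1 and Numa1 kept these calls without each library, and Ect2, Plk2 and Cdc20 did not. The 13 calls became 8 without Mfn2-/- replicate 1 or 3. Of 14 oocyte markers 1 was higher and 6 were lower in Mfn1-/- than in Mfn2-/-. Of the 3 endothelial markers 1 was higher and 1 lower. The part of these markers in these results was not tested.

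The interaction asked whether loss of mitofusin 1 moved a transcript by a different amount in oocytes without mitofusin 2 than in oocytes with it, as the log2 fold change of Mfn1&2-/- over Mfn2-/- minus that of Mfn1-/- over WT. It was called for Bub1b and Tpx2. For Bub1b the loss of mitofusin 1 came with 0.55 ± 0.097 in the absence of mitofusin 2 and with -0.14 ± 0.097 in its presence, a difference of 0.69 ± 0.14 (edgeR adjusted p = 0.0149). For Tpx2 the 2 values were 0.62 ± 0.12 and -0.078 ± 0.12, a difference of 0.70 ± 0.16 (edgeR adjusted p = 0.0318). These 2 of 10 stood against 4.13% of all genes called (2.92% higher, 1.2% lower), and the median of the 10 was 0.14, against -0.011 over all genes.

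The Bub1b interaction stayed without each library (0.61 to 0.79), whereas that of Tpx2 was lost without WT replicate 2 or 3, Mfn1-/- replicate 1, Mfn2-/- replicate 2 or 3, or Mfn1&2-/- replicate 2 (edgeR adjusted p = 0.0552 to 0.0814). With library size as the only scaling the median over all genes moved to -0.12 and 46.3% of calls were higher in place of 70.9%, and the interactions were 0.59 for Bub1b and 0.59 for Tpx2, both still called. Of the 89 pathway genes 5 had a positive interaction and 0 a negative one (5.62%): Tubg1 (1.04 ± 0.16), Nusap1 (0.89 ± 0.20), Spdl1 (0.78 ± 0.14), Dlgap5 (0.65 ± 0.18), which bundles spindle fibres, and Kif23 (0.59 ± 0.16). With library size as the only scaling 3 were positive and 2 negative. The 5 calls became 2 without WT replicate 3, Mfn1-/- replicate 1 or Mfn2-/- replicate 2, 3 without WT replicate 2, Mfn2-/- replicate 3 or any 1 Mfn1&2-/- pool, 3 with RLE scaling and 9 with DESeq2. DESeq2 called 903 interactions over all 11385 genes. Tubg1 and Spdl1 kept the call without each library.

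For each gene called in any comparison, the 3 transcripts with the most similar profile over the 12 libraries were taken by Pearson's r of log2(CPM + 1) among 9166 genes with a mean of at least 5 CPM. The libraries share groups, so r describes a pattern across 4 groups and carries no test. Nearest to Bub1b were Chd6 (0.948), Eif3d (0.935) and Slc7a6os (0.933). Nearest to Tpx2 were Lrr1 (0.951), Bag1 (0.949) and Rab14 (0.949). Nearest to Bub3 were 3230401D17Rik (0.963), Cenpo (0.960), a subunit of the centromere network, and Tpd52 (0.942), and nearest to Mad2l1 were Mcu (0.918), Blcap (0.895) and Tmem106c (0.891).

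Nearest to Aurkc were Rad54l2 (0.933), St6galnac3 (0.922) and Gm10466 (0.909). Rad54l2, a chromatin remodelling helicase, stood at 64.9, 67.5 and 121 CPM in Mfn1&2-/- against 176, 171 and 172 CPM in WT. As for Aurkc, replicate 3 of Mfn1&2-/- was above the other 2 pools of the group and below every WT pool.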

How the data were processed

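Total RNA of 12 oocyte pools was depleted of ribosomal RNA and made into stranded libraries read as paired ends, per the labels' protocols. The authors' deposited table holds raw counts per gene. The authors' deposited signal table holds CPM scaled by TMM, which equalled CPM computed here within a relative 5.1e-15 and served only as a check. STAR 2.7.0a, FastQC 0.11.7, edgeR and the mm10 build were used, per the submitters' processing notes. The sources used here do not give the gene models, if strand was used in counting, or how multiply matching reads were handled. Positions and exon lengths are from GENCODE vM21 (GRCm38).

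Groups follow the labels. 1 pool spelled "Mn2-/-" was placed in Mfn2-/- by its description. A quasi-likelihood model was fitted to the counts with edgeR 4.0.16 in R 4.3.3, using TMM scaling and group means over the 12 libraries together, which leaves 8 residual degrees of freedom. All 11385 genes passed filterByExpr. Adjusted p-values were Benjamini-Hochberg values over all genes of a comparison, called below 0.05. Standard errors are the absolute log2 fold change over the square root of edgeR's F. Totals of 11575357 to 16024893 counts set the floor of 3 counts, which covers counting error only.

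The 10 genes, the pathway and marker lists and the promoter motifs were chosen with earlier results of these data known. All 10 genes are given, with tests against WT for each and otherwise where called. Pathway genes are named if called with no overlap between 3 and 3 libraries (overlap not asked of the interaction), at most 3 per list, direction and comparison by fold change. Alternatives were RLE scaling, library size only, DESeq2 1.42.0, no low-count filter, a filter of 5 CPM in 3 or more libraries, a block on replicate number, a fit of the compared groups alone, each library left out in turn, and the longest transcript as length. Since every gene passed filterByExpr, the fit without a low-count filter was the main fit again and could not differ from it.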

Additional observations from a re-analysis of the deposited data

Results flagged for a closer look

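The effect of losing mitofusin 1 differed between oocytes without and with mitofusin 2 for 7 transcripts, each by edgeR's test of the interaction with adjustment over all genes, and in each the log2 difference was positive. Bub1b differed by 0.69 (edgeR adjusted p = 0.0149) and Tpx2 by 0.70 (edgeR adjusted p = 0.0318). Among the pathway genes Tubg1 differed by 1.04 (edgeR adjusted p = 0.00285), Nusap1 by 0.89 (edgeR adjusted p = 0.0241), Spdl1 by 0.78 (edgeR adjusted p = 0.0102), Dlgap5 by 0.65 (edgeR adjusted p = 0.0494) and Kif23 by 0.59 (edgeR adjusted p = 0.0494). Of the 10 genes 2 and of the 89 pathway genes 5 had a called interaction, against 4.13% of all genes. Over all genes 70.9% of called interactions were positive, or 46.3% with library size as the only scaling. Only Bub1b, Tubg1 and Spdl1 kept the call without each library.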

How the results depend on the processing

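The count of the 10 genes called moved by over 1.5 times under these settings: in Mfn2-/- against WT it was 2, but 4 with library size only and 0 with the replicate block; in Mfn1&2-/- against WT it was 1, but 0 with only the compared groups; in Mfn1&2-/- against Mfn1-/- it was 1, but 3 with DESeq2, which added Bub1b and Aurka, and 0 with only the compared groups; in Mfn1-/- against Mfn2-/- it was 2, but 1 with the replicate block. Without 1 library the counts ran from 0 to 2 in Mfn2-/- against WT, 0 to 1 in Mfn1&2-/- against WT, 0 to 3 in Mfn1&2-/- against Mfn1-/-, 2 to 3 in Mfn1&2-/- against Mfn2-/-, 1 to 3 in Mfn1-/- against Mfn2-/- and 1 to 3 for the interaction, and stayed at 0 in Mfn1-/- against WT. Signs of values that were not called turned for Incenp in Mfn2-/- against WT (0.0087 with library size only) and, without 1 library, for Bub1 (-0.066 to 0.10) and Tpx2 (-0.19 to 0.055) in Mfn1-/- and for Mad2l1 (-0.014 to 0.093), Ttk (-0.12 to 0.017) and Plk1 (-0.18 to 0.11) in Mfn1&2-/-, all against WT. Over all genes DESeq2 called 224 in place of 26 in Mfn1-/- against WT, where 13 were called with only the compared groups and 3 to 51 without 1 library. DESeq2 called 834 in place of 479 in Mfn1&2-/- against WT, 1044 in place of 610 in Mfn1&2-/- against Mfn1-/-, and 903 in place of 470 interactions, of which the replicate block called 276. Without 1 library the counts over all genes ran from 708 to 1429 (1297 with all) in Mfn2-/- against WT, 282 to 550 (479) in Mfn1&2-/- against WT, 295 to 689 (610) in Mfn1&2-/- against Mfn1-/-, 570 to 1302 (1163) in Mfn1&2-/- against Mfn2-/-, 873 to 1673 (1515) in Mfn1-/- against Mfn2-/- and 160 to 464 (470) for the interaction. Of 45 named pathway calls 21 stayed without each library, and 5 (without Mfn1-/- replicate 2 or WT replicate 1) to 21 (without Mfn2-/- replicate 2) were lost without 1 library. Deviations of libraries with the same replicate number correlated at -0.17 to 0.20, so the numbers were not taken as a pairing. The sample descriptions carry other numbers, some shared between groups, and a pairing by those was not tested. With the block Bub1b (edgeR adjusted p = 0.0515) and Tpx2 (edgeR adjusted p = 0.0511) in Mfn2-/- against WT and Mad2l1 (edgeR adjusted p = 0.0551) in Mfn1-/- against Mfn2-/- were not called. The cause of these shifts was not tested. A p above the threshold, as for Ttk and Incenp in each comparison, does not show that levels were equal.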

Other observations

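Genes within 5 Mb of a called gene were counted after the values had been seen. Around Mad2l1, 6 of 14 tested neighbours (42.9%) were called in Mfn1-/- against Mfn2-/-, 3 of them lower like Mad2l1, against 13.3% of all genes. Around Bub3, 8 of 85 (9.41%) were called in that comparison, 1 of them lower like Bub3. Around Aurkc 3 of 59 (5.08%) were called in Mfn1&2-/- against WT, 1 of them lower, against 4.21% of all genes. In Mfn1&2-/- against Mfn1-/- 4 of 59 (6.78%) were called there, 2 of them lower, against 5.36% of all genes. Against Mfn2-/- 6 of 59 (10.2%) were, 2 of them lower, against 10.2% of all genes. Around Bub1b 9 of 78 (11.5%, 5 higher) and around Tpx2 4 of 88 (4.55%, 2 higher) were called in Mfn1&2-/- against Mfn2-/-, against 10.2% of all genes. In Mfn2-/- against WT the counts were 8 of 78 (10.3%, 6 lower) and 9 of 88 (10.2%, 4 lower), against 11.4% of all genes. For the interaction they were 6 of 78 (7.69%, 5 positive) and 2 of 88 (2.27%, 2 positive), against 4.13% of all genes.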
